A study of Mus musculus with 2 samples.

Results

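The 10 genes described here encode proteins of telomeric heterochromatin: Atrx and Daxx, the H3.3 genes H3f3a and H3f3b, the HP1 genes Cbx1, Cbx3 and Cbx5, the methyltransferase genes Suv39h1 and Suv39h2, and Smchd1. They were chosen by gene symbol, for what their products are known to do at telomeres, and all 10 were found among the 18888 genes of the deposited table. The comparison was between 46C mouse embryonic stem cells (mESCs) that carry the empty PiggyBac vector (PB) and 46C mESCs that overexpress polyadenylated TERRA, the telomeric repeat RNA, from that vector (PB-TERRA). 46C is a single mESC line with a GFP reporter for neural differentiation, and both groups were kept in the same mESC medium on gelatin, at passages 21 to 24. TERRA is not a gene of the table, so its level was not measured here. Each group was sequenced as 1 library, and the labels do not say whether the cells were a clone or a pool. No spread between cultures could therefore be estimated. Every difference below is between 2 libraries and has no replicate check.

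Telomeric and pericentromeric chromatin of mouse cells is marked by trimethylation of histone H3 at lysine 9. The SUV39H enzymes write this mark, and the HP1 proteins bind it through their chromodomains. ATRX and DAXX form a remodeller and histone chaperone pair that deposits the variant histone H3.3 at telomeres and other repeats. SMCHD1 is a noncanonical SMC protein that acts in X inactivation and at imprinted loci and is also found at telomeres. TERRA is transcribed from subtelomeres into the telomeric repeats.

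The table gives expression values that were read as FPKM, that is fragments scaled to gene length and to library size. Low values moved in equal steps once multiplied by gene length, and these steps gave a depth of 24740000 reads in PB and 24900000 in PB-TERRA. A ratio here is the log2 of FPKM + 0.1 in PB-TERRA minus that in PB. On this scale, the difference of a gene of low level is understated. The 95% interval of a log2 ratio between the libraries is exact (Clopper-Pearson) on reads estimated from FPKM, length and depth. For comparisons between genes the interval is a normal approximation. Each interval covers counting error only. A gene passed the filter with at least 1 FPKM in 1 library, which 12263 genes did. All 10 markers of mESCs, among them Pou5f1, Sox2 and Nanog, were present, from 27.02 (Tfcp2l1) to 1162.5 FPKM (Dppa5a) in PB and from 34.08 to 1039.9 FPKM in PB-TERRA. Summed over 7 primitive endoderm markers the level was 10.5 FPKM in PB and 14.65 FPKM in PB-TERRA. Of those past the filter 5 of 5 were higher, against 48.6% of all genes, and 4 had an interval above 0 (18.2% of all genes). Summed over 8 fibroblast markers the level was 19.72 and 23.90 FPKM, with 3 of 4 higher and 2 with an interval above 0. For 6 neural markers the sums were 89.15 and 78.79 FPKM, with 2 of 4 higher (Neurod1 and Sox1) and a median log2 ratio of 0.18, opposite in sign to the sum, which Nes and Tubb3 carry. For 6 trophectoderm markers the sums were 38.27 and 35.96 FPKM, with 2 of 4 higher (Cdx2 and Krt7). The 6 of 7 markers of 2-cell-like cells found in the table summed to 4.33 and 1.80 FPKM. Only 2 of these passed the filter, and 2 of 2 were lower (50.9% of all genes). Below the filter, Tcstv3 had the higher value in PB-TERRA, at 0.05 and 0.11 FPKM. No marker of these lists was at the floor in both libraries, and the part of these cells in the results below was not tested. In bulk RNA, fewer cells of a type and less RNA per cell cannot be told apart.

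All 10 genes were expressed in both libraries, and none reached a log2 ratio of 1 in either direction, a size seen in 0.913% of the 12263 genes. Atrx, Cbx3, Cbx5 and Daxx were higher in PB-TERRA by 9.25% to 15.7%, each with a counting interval above 0. H3f3b was lower by 2.36%, with an interval that ended just below 0 and included 0 under both corrections given further on. The intervals of the other 5 genes included 0. An interval above 0 was found in 18.2% of all genes and one below 0 in 17.6%, against 4 (40%) and 1 (10%) of the 10. The median log2 ratio of the 10 genes was 0.03, and that of all genes past the filter was -0.0044. With 10 genes and 1 library a group, these counts are a description and nothing is read from them about the list.

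The genes kept 1 order of FPKM in both libraries, from H3f3a at the top to Suv39h2 at the bottom. H3f3a stood at the 98.9th percentile of all genes past the filter by mean FPKM and Suv39h2 at the 50.6th, so that the reader and histone genes were far above the enzymes that write the mark. Each gene exceeded the next in this order beyond counting error in both libraries. The closest neighbours in PB were Smchd1 and Suv39h1, with a ratio of FPKM of 1.16 (95% interval 1.09 to 1.23), against 1.18 (1.11 to 1.25) in PB-TERRA. The closest in PB-TERRA were Daxx and Atrx, at 1.17 (1.12 to 1.23), against 1.24 (1.19 to 1.30) in PB. Such comparisons rest on the gene length that the authors used for each gene.

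**Figure D1:**
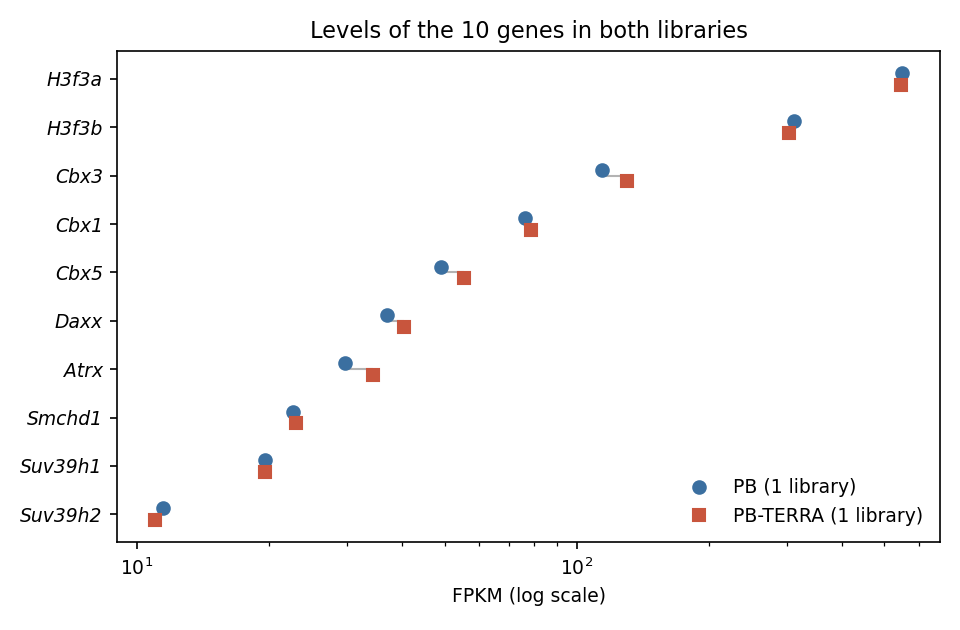
FPKM on a log axis for each of the 10 genes, with a circle for the PB library and a square for the PB-TERRA library. The order of the genes is the same in both, and the shift between the marks is widest for Atrx, at 29.70 and 34.37 FPKM.

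Atrx, which encodes the remodeller of the pair, had 29.70 FPKM in PB and 34.37 FPKM in PB-TERRA. The higher value was in PB-TERRA, with a log2 ratio of 0.21 (95% interval 0.16 to 0.26) from 7046 and 8204 estimated reads. As deposited this was the largest of the 10, though Cbx3 and Daxx had larger values under both corrections described further on, and 23.3% of all genes past the filter lay at least as far from 0. Daxx, the H3.3 chaperone that works with ATRX, had 36.96 and 40.38 FPKM, again higher in PB-TERRA. Its log2 ratio was 0.13 (95% interval 0.05 to 0.21) from 2273 and 2499 estimated reads, and 42.8% of genes lay at least as far out. The partners did not differ from each other beyond counting error, with Atrx above Daxx by 0.08 in log2 ratio (95% interval -0.01 to 0.18). With the length trend taken off, this difference was -0.0044 (-0.10 to 0.09), and with GC content and length taken off it was -0.06 (-0.16 to 0.03). Per length, Atrx stood at 0.804 of the Daxx level in PB and at 0.851 in PB-TERRA.

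H3f3a and H3f3b, on chromosomes 1 and 11, encode the same H3.3 protein from different coding sequences. In the GENCODE M21 transcripts of GRCm38 both coding sequences had 411 bases and differed at 95 of them (76.9% identity), while the 136 encoded residues differed at 0 positions. The opening 60 bases of each are shown because they let a reader see how far reads of these genes can be told apart. Capitals mark the 13 positions at which they differ.
H3f3a: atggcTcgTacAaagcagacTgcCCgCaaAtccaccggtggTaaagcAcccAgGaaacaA
H3f3b: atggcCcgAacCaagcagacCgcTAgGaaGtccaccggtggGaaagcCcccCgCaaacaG
The longest identical stretch of the coding sequences was 23 bases.

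H3f3a was the most abundant of the 10, with 549.17 FPKM in PB and 545.27 FPKM in PB-TERRA. As deposited the libraries were level within counting error, at a log2 ratio of -0.01 (95% interval -0.05 to 0.02) from 13194 and 13181 estimated reads. With length taken off the H3f3a log2 ratio was 0.04 (0.0056 to 0.08), and with GC content and length taken off 0.04 (0.007 to 0.08). Both intervals lay just above 0, but they leave out the error of the median that was taken off. Whether H3f3a differed after correction is therefore not settled. H3f3b had 310.84 and 303.51 FPKM, with the higher value in PB. Its log2 ratio was -0.03 (95% interval -0.07 to -0.0008), and when the columns were scaled to the same sum it was 0.0036. Summed over both genes, H3.3 had 860.01 and 848.78 FPKM, and the reads gave a log2 ratio of -0.02 (95% interval -0.05 to 0.0013). The genes differed from each other by 0.02 in log2 ratio (95% interval -0.02 to 0.07), by 0.06 (0.0081 to 0.10) with the length trend taken off and by 0.075 (0.03 to 0.12) with GC content and length taken off, H3f3a being the higher in each case. H3f3a gave 63.9% of this FPKM in PB and 64.2% in PB-TERRA. As deposited, summed H3.3 transcript was therefore level within counting error, from 27637 and 27372 estimated reads, in the libraries in which Atrx and Daxx differed. Of the 50-base stretches of the annotated H3f3a transcript, however, 74.1% also occur in 40 other annotated genes, among them H3f3c. For H3f3b 10.6% occur in 3 other genes. The H3f3a transcript used has 724 bases, fewer than the deposited gene length of 1086 bases, so part of that length was not assessed. Of the 40 genes, 2 are in the deposited table, and H3f3c is not. The H3f3a value is uncertain to the extent that its reads were shared out among the 40 genes.

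As deposited, the HP1 genes had unequal log2 ratios. The differences among the HP1 genes were not beyond counting error once GC content and length were both taken off. Cbx3, which encodes HP1 gamma, had 113.83 FPKM in PB and 130.16 FPKM in PB-TERRA. It was higher in PB-TERRA, at a log2 ratio of 0.19 (95% interval 0.14 to 0.25) from 4889 and 5625 estimated reads. Cbx5, which encodes HP1 alpha, had 49.15 and 55.47 FPKM, also higher in PB-TERRA. Its log2 ratio was 0.17 (95% interval 0.14 to 0.21) from 10579 and 12013 estimated reads. Cbx1, which encodes HP1 beta, had 76.37 and 78.43 FPKM, and its log2 ratio of 0.04 had an interval that included 0 (-0.03 to 0.10). As deposited, the difference itself was beyond counting error, with Cbx3 above Cbx1 by 0.16 in log2 ratio (95% interval 0.07 to 0.24) and Cbx5 above Cbx1 by 0.14 (0.06 to 0.21). Cbx3 and Cbx5 differed by 0.02 (-0.05 to 0.09). With the length trend taken off, the difference between Cbx5 and Cbx1 was 0.06 and its interval, -0.02 to 0.13, included 0. Cbx3 was then above Cbx1 by 0.17 (0.09 to 0.26) and above Cbx5 by 0.11 (0.05 to 0.18). With GC content and length taken off, all of these intervals included 0: Cbx3 was above Cbx1 by 0.05 (-0.04 to 0.13) and above Cbx5 by 0.04 (-0.03 to 0.11), and Cbx5 was above Cbx1 by 0.009 (-0.07 to 0.08).

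Summed over the HP1 genes, the level was 239.35 FPKM in PB and 264.06 FPKM in PB-TERRA, and the reads gave a log2 ratio of 0.15 (95% interval 0.13 to 0.18). Per length, Cbx3 gave 47.6% of HP1 FPKM in PB and 49.3% in PB-TERRA, Cbx5 gave 20.5% and 21.0%, and Cbx1 gave 31.9% and 29.7%. For Cbx3, 28.9% of the 50-base stretches occur in 16 other annotated genes, while Cbx1 has 0 such stretches and Cbx5 only 2. None of the 10 genes shares a 50-base stretch with another of the 10.

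The H3K9 methyltransferase genes were the least abundant and showed no difference detectable at this depth. Suv39h1 had 19.53 FPKM in PB and 19.51 FPKM in PB-TERRA. Its log2 ratio was -0.0015 (95% interval -0.11 to 0.11) from 1446 and 1454 estimated reads. Suv39h2 had 11.45 and 10.97 FPKM, with a log2 ratio of -0.06 (95% interval -0.18 to 0.06) from 1171 and 1129 estimated reads. For both genes together, the reads differed by a log2 ratio of -0.03 (95% interval -0.11 to 0.05). These intervals leave room for a change of 11.8% down to 4.07% up in Suv39h2, as they are wider than for the more abundant genes. Suv39h1 exceeded Suv39h2 by a ratio of FPKM of 1.71 (95% interval 1.58 to 1.84) in PB and 1.78 (1.65 to 1.92) in PB-TERRA. Of the Suv39h1 stretches 20.5% occur in the annotated gene Gm14820, and 4.28% of the Suv39h2 stretches occur in Dclre1c.

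Smchd1 had 22.63 FPKM in PB and 22.94 FPKM in PB-TERRA. Its log2 ratio was 0.02 (95% interval -0.04 to 0.08) from 3885 and 3962 estimated reads, so as deposited the libraries did not differ beyond counting error. With GC content and length taken off, its log2 ratio was -0.10 with an interval below 0 (-0.16 to -0.03). Loci at which SMCHD1 is known to act in the mouse include the clustered protocadherins and the imprinted Snrpn cluster. All 29 protocadherin genes of the alpha and beta clusters in the table stayed at or below 0.27 FPKM in both libraries, with summed levels of 1.15 and 1.25 FPKM. About 102 and 111 reads stood behind these sums, and their log2 ratio was 0.11 (95% interval -0.29 to 0.52). Of the 6 Snrpn cluster genes, all past the filter, 2 were higher and 4 lower, with a median log2 ratio of -0.17. Magel2, an imprinted gene of low level that is named after its value was seen, had 1.30 and 0.82 FPKM, a log2 ratio of -0.61 (95% interval -1.05 to -0.27). Mkrn3, the highest of the cluster in log2 ratio, had 1.86 and 2.27 FPKM (0.27, 95% interval -0.09 to 0.65). Snurf, which is read from the same bicistronic transcript as Snrpn, was the lowest, with 7.42 and 1.66 FPKM (log2 ratio -2.10). Snrpn itself had 83.45 and 80.45 FPKM (log2 ratio -0.05, 95% interval -0.12 to 0.01). With GC content and length taken off, the log2 ratio of Snrpn was -0.10 with an interval below 0 (-0.17 to -0.03). Since counting can split reads between these overlapping genes, their sum is the safer value, with a log2 ratio of the reads of -0.15 (95% interval -0.21 to -0.08).

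**Figure D2:**
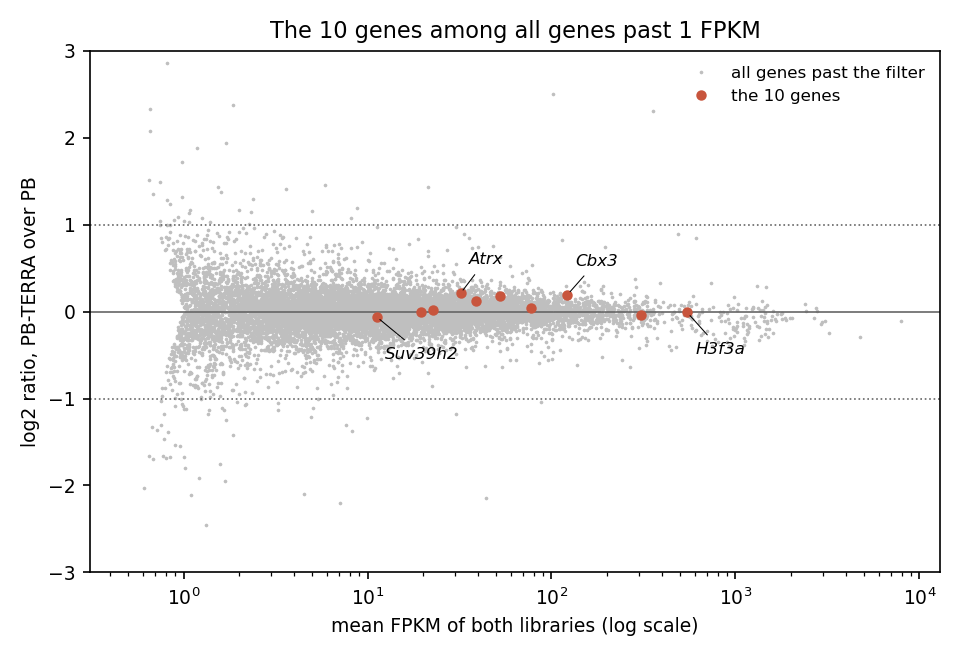
Log2 ratio of PB-TERRA over PB against mean FPKM on a log axis, with a grey point for each gene past the filter and a red point for each of the 10 genes. The 10 lie between -0.06 and 0.21, inside the cloud, and far from the dotted lines at 1 and -1; 22 genes lie outside the drawn range.

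Length and base composition moved with the log2 ratios in these libraries. Among all genes, the median log2 ratio was lower for short than for long genes, and in the bins of the 10 genes it ran from -0.05 for H3f3a, with 1086 bases, to 0.08 for Atrx, with 9703 bases. The 10 genes had a median length of 2850 bases and a median GC content of 45.7%, against 2800 bases and 51.0% for all genes past the filter. After the median of the gene's length bin was taken off, Atrx had a log2 ratio of 0.13 (95% interval 0.09 to 0.18), Cbx5 of 0.12 (0.08 to 0.16), Daxx of 0.14 (0.05 to 0.22) and Cbx3 of 0.23 (0.18 to 0.29). After correction for GC content and length together, Atrx had 0.09 (0.05 to 0.14), Cbx5 0.08 (0.04 to 0.12), Daxx 0.16 (0.07 to 0.24) and Cbx3 0.12 (0.06 to 0.17). The intervals of these 4 genes thus stayed above 0 under both corrections while Atrx and Cbx5 came closer to 0 under each.

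The other genes were less settled under these corrections. H3f3b came to -0.02 (95% interval -0.05 to 0.02) with length taken off and to -0.03 (-0.07 to 0.0007) with GC content and length taken off, so that its interval then included 0. Cbx1 came to 0.07 (95% interval 0.0047 to 0.13) with GC content and length taken off, the correction under which Smchd1 lay below 0. The low end for Cbx1 was close to 0, and the error of the bin median is not in these intervals. With GC content and length taken off, 6 of the 10 genes had an interval above 0 and 1, Smchd1, below, against 16.4% and 15.9% of all genes. With length alone the counts were 5 and 0, against 18.0% and 17.0%.

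**Figure D3:**
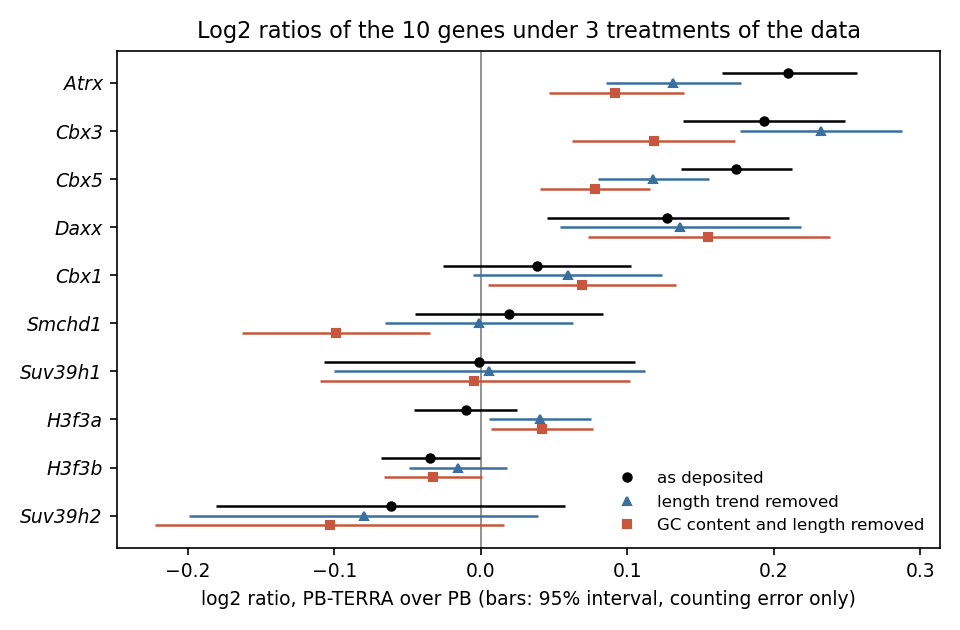
Log2 ratios of the 10 genes, PB-TERRA over PB, as deposited (circles), with the length trend removed (triangles) and with GC content and length removed (squares), each with its 95% interval of counting error. The intervals of Atrx, Cbx3, Cbx5 and Daxx lie right of 0 in each case, and Smchd1 moves from 0.02 to -0.10.

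**Figure D4:**
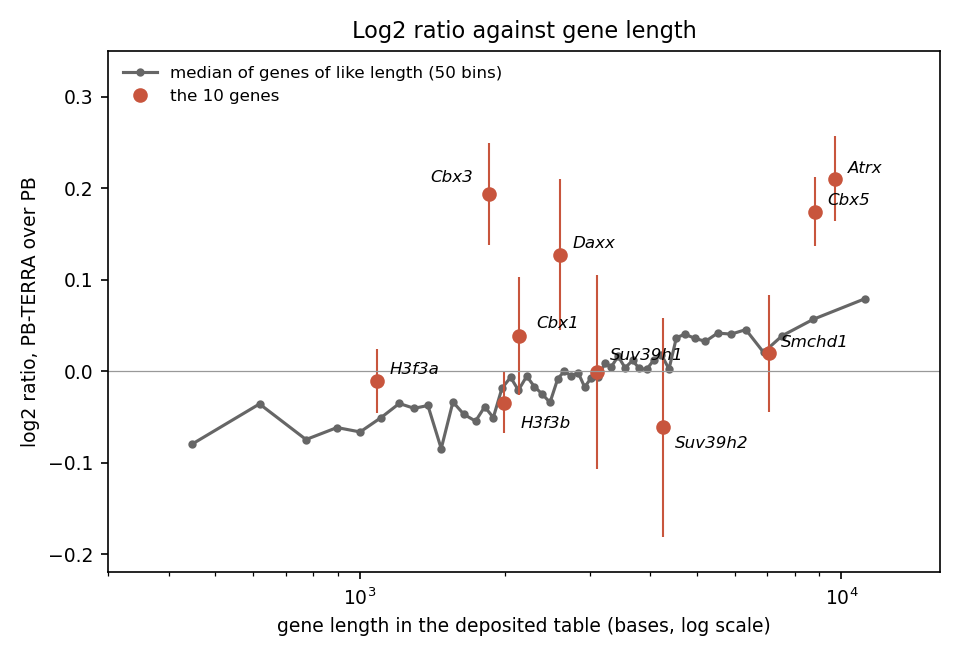
Log2 ratio against gene length on a log axis, with red points and 95% counting intervals for the 10 genes and a grey line for the median of all genes in 50 length bins. The line climbs with length, and Atrx and Cbx5 stand above its right end while Cbx3 and Daxx stand above its middle.

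The 4 genes with higher values in PB-TERRA are shown by the 250 bases before their start site, as they are the members whose intervals lay above 0 together. The sequences are from RefSeq on GRCm38.p6, a later build than the mm9 named by the submitters, and for a gene with several listed starts the most upstream was taken. They lie at chrX:105929373-105929622 (minus strand) for Atrx, chr17:33909195-33909444 (plus strand) for Daxx, chr6:51470366-51470615 (plus strand) for Cbx3 and chr15:103239853-103240102 (minus strand) for Cbx5. Capitals mark matches, on either strand, to the CCAAT box (CCAAT), the GC box (GGGCGG), the E-box (CACGTG), the TATA box (TATAAA) or the telomeric repeat (TTAGGG). Neighbouring GC boxes can overlap and then run together in capitals.
Atrx: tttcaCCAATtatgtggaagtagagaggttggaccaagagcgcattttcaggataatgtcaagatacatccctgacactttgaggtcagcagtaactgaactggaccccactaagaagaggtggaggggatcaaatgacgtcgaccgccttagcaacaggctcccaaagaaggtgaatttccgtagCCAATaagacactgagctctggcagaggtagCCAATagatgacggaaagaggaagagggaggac
Daxx: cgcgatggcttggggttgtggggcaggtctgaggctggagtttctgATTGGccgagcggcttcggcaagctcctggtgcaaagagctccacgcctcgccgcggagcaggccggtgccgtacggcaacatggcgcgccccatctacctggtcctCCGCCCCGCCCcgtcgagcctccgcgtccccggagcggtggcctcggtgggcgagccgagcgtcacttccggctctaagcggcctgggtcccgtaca
Cbx3: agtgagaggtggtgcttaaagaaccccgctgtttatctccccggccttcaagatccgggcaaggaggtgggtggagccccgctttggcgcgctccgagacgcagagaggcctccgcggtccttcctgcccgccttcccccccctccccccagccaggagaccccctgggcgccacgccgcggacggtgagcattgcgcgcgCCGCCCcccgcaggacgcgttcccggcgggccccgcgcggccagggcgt
Cbx5: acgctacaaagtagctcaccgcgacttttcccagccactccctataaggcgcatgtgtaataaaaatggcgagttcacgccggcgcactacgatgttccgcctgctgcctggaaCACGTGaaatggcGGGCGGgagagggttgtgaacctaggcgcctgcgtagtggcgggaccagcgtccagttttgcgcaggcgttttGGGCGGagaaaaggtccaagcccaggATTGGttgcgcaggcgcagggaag
The Atrx window is the poorest of these in CpG, with 6 CpG dinucleotides and 3 CCAAT matches, while those of Daxx and Cbx3 hold 29 CpG each and that of Cbx5 holds 22.

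Over the windows of all 10 genes, TTAGGG was found in 0, against 9.32% of the 32851 windows of all genes. CCAAT was found in 6 of 10 (33.8% of all), GGGCGG in 8 (32.7%), CACGTG in 1 (6.02%) and TATAAA in 1 (12.4%). The windows differ in base content, however. The ratio of CpG observed to CpG expected from base content had a median of 0.373 over all windows. Among the 10 genes this ratio ran from 0.423 (Atrx) to 1.05 (H3f3a). The motif counts were not set against windows of like CpG content, so nothing is read from them about the list. The E-box match was in Cbx5 and the TATA box match in H3f3b, whose window also holds 4 CCAAT matches. None of the motifs was in all 4 genes with higher values and in none of the other 6. A match describes the letters of these windows and is not a sign of binding.

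Other genes of the same chromatin were compared through 5 lists. Against these counts, 48.6% of all genes past the filter were higher and 50.9% lower, and intervals lay above 0 for 18.2% and below 0 for 17.6%. With length taken off these shares were 18.0% and 17.0%, and with GC content and length taken off 16.4% and 15.9%. Of 11 other chaperones of H3, from the HIRA, ASF1 and CAF-1 complexes with NASP and Dek, all passed the filter, and 7 were higher and 4 lower, with a median log2 ratio of 0.05. The interval lay above 0 for 5 of them (18.2% of all genes) and below 0 for 0 (17.6% of all), but with GC content and length taken off it lay above 0 for 2 (16.4% of all), and with length alone taken off it lay below 0 for 2 (17.0% of all), Hira and Cabin1. As deposited, the highest was Ubn2, a subunit that works with HIRA, with 9.03 and 10.53 FPKM (log2 ratio 0.22, 95% interval 0.15 to 0.29). With GC content and length taken off, Ubn2 had 0.10 (0.04 to 0.17). Dek, named after its value was seen, was then higher, at 0.18 (0.13 to 0.23). With length alone taken off, Dek had 0.20 (0.15 to 0.25) and Ubn2 0.14 (0.08 to 0.21). The lowest was Cabin1, of the same complex as HIRA, with 19.39 and 18.78 FPKM (-0.05, -0.12 to 0.02). Hira itself, named after its value was seen, had 28.14 and 27.40 FPKM (-0.04, -0.11 to 0.03).

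Of 13 other genes for H3K9 and H4K20 methyltransferases and their cofactors, 11 passed the filter, with 7 higher and 4 lower and a median log2 ratio of 0.03. Intervals lay above 0 for 3 and below 0 for 2, or for 1 with GC content and length taken off. Prdm2 was the highest, with 15.61 and 17.46 FPKM (log2 ratio 0.16, 95% interval 0.09 to 0.23). Trim28, the corepressor that brings SETDB1 to retroelements, was the lowest, with 536.3 and 480.33 FPKM (-0.16, -0.18 to -0.14). Setdb1, named after its value was seen, had 39.67 and 40.01 FPKM (0.01, -0.05 to 0.07).

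Of 16 genes for the HUSH complex, MORC proteins and other readers and repressors of H3K9me3 chromatin, 12 were higher and 4 lower, with a median log2 ratio of 0.06, or 0.013 with GC content and length taken off. Intervals lay above 0 for 7 (18.2% of all genes), or for 4 with length taken off (18.0%), and below 0 for 2 (17.6%), or for 1 with GC content and length taken off (15.9%). Fam208a, the scaffold of HUSH, was the highest, with 13.32 and 16.32 FPKM (log2 ratio 0.29, 95% interval 0.22 to 0.36), and Pphln1, another HUSH subunit, was the lowest, with 16.84 and 15.22 FPKM (-0.15, -0.25 to -0.04). With GC content and length taken off, these became 0.17 (0.10 to 0.25) and -0.19 (-0.29 to -0.08). The subunits of a single complex therefore lay on opposite sides of 0.

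Of 11 H3K9 demethylase genes 10 passed the filter, with 5 higher and 5 lower and a median log2 ratio of -0.0038. Intervals lay above 0 for 2, or for 0 with GC content and length taken off, and below 0 for 2, or for 3 under either correction. Kdm4b, which encodes a demethylase of trimethylated H3K9, was the lowest, with 11.14 and 8.84 FPKM (log2 ratio -0.33, 95% interval -0.45 to -0.22), and it stayed at -0.28 (-0.40 to -0.16) with GC content and length taken off. Kdm7a was the highest as deposited, with 2.16 and 2.40 FPKM (0.15, -0.02 to 0.33). With GC content and length taken off, Kdm7a fell to 0.03 (-0.14 to 0.21) and was no longer the highest. Outside the Snrpn cluster, 0 genes of these 5 lists past the filter reached a log2 ratio of 1 in either direction.

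**Figure D5:**
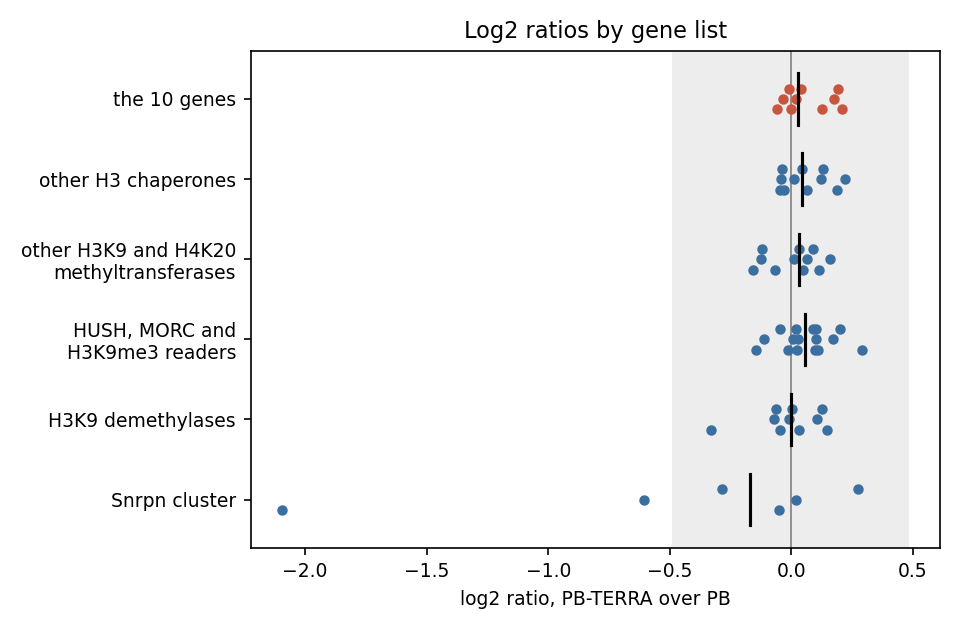
Log2 ratios, PB-TERRA over PB, of the genes past the filter in each list, with a point per gene, a black line at the list's median and a grey band for the middle 95% of all genes past the filter (-0.49 to 0.48). All 10 genes lie inside the band, and Snurf (-2.10) and Magel2 (-0.61) lie outside it.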

How the data were processed

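A single library was made from total RNA of each group, and the labels name a BGISEQ500 protocol. The submitters' processing notes name HISAT, Cufflinks and mm9, without versions or roles. The authors deposited 1 table of 18888 genes with FPKM values, rounded to 2 decimals with a floor of 0.01, and the gene length in bases. The unit is read from the values, as the header names none. The deposited fold changes, p-values, false discovery rates and calls were not used.

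Depth was found from the steps of low FPKM values times gene length. With 115 bases taken off the length, 83.2% of 772 low values in PB and 87.6% of 808 in PB-TERRA came within 0.2 of a whole read. Reads of the other genes are estimates from FPKM, length and depth. The 95% intervals cover counting error only, and PCR copies were not marked. Intervals after a correction are shifted by the median of the gene's bin, and the error of that median is left out. Intervals of a difference or ratio between genes use a normal approximation on the log scale. No test was made, since each group has 1 library.

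The members and lists were chosen with earlier results of these data known. Named are all 10 genes and, per list, the highest and lowest log2 ratio among genes with at least 50 estimated reads and any gene past 1. Hira, Dek, Setdb1, Magel2, Snrpn and the single marker genes were named after their values were seen. Alternatives were the scaling, the pseudocount (1 or 0.01 FPKM), the filter and the length trend (50 bins). Removal of GC content and length (10 by 10 bins, GC from GENCODE M21 for 11750 of 12249 genes with an interval) was added after the data were seen. Shared stretches were sought on both strands of all GENCODE M21 transcripts. Proteins were compared by translation and not printed. The computations were tested on simulated data. Figures were drawn with matplotlib 3.10.9. Intervals came from scipy 1.17.1, and tables were handled in pandas 2.3.3 with numpy 2.4.6 under Python 3.11.15.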

Additional observations from a re-analysis of the deposited data

How the results depend on the processing

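No paired analysis was possible because each group has 1 library. Of 268 values under 10 alternatives, 224 stayed close to the value as deposited. A single value did so if it moved by no more than the distance from the middle to the end of its counting interval. A list's median was held to the median of that distance over its genes, and a count to a factor of at most 1.5. With the same column sum, the value of H3f3b was 0.0036 in place of -0.03, the only change of sign among those of the 10 genes with an interval on 1 side of 0 as deposited. In that scaling H3f3a was 0.0277, Cbx5 was 0.21, and 1 of the 10 genes was lower. All 4 scaling and length settings (centred, equal sums, median of ratios, length removed) left 0 of the 10 genes with an interval below 0, against 17.0%, 12.3%, 17.0% and 17.0% of all genes. The shift taken off all genes was -0.0044 in centring, -0.0042 in median-of-ratios and -0.038 with equal sums.

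With length removed, Atrx was 0.13, Cbx5 0.12 and H3f3a 0.0406. With GC content and length removed, Atrx was 0.0919, Cbx3 0.12, Cbx5 0.0777, H3f3a 0.0421 and Smchd1 -0.10. In the lists, the genes with an interval above 0 then numbered 2 chaperones and 0 demethylases (16.4% of all genes). Those below 0 numbered 1 methyltransferase gene and 1 gene of the HUSH list (15.9% of all genes). With length alone removed, 4 genes of the HUSH list and 1 demethylase were above 0 (18.0% of all genes), and 2 chaperones below (17.0%). With equal sums, 5 methyltransferase genes were above 0, and 1 gene of the HUSH list and 1 demethylase below. Centring and median-of-ratios also left 1 demethylase below 0 (17.0% of all genes in each). In the Snrpn and protocadherin list, 1 gene was above 0 with no filter (12.8% of all genes). Where the mean had to reach 5 FPKM and fewer genes are counted, 0 were below 0 (20.4% of all genes).

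All genes past a log2 ratio of 1 numbered 112, and 513 with no filter, 17 where the mean had to reach 5 FPKM, 45 with a pseudocount of 1 and 67 with GC content and length removed. As shares of estimated reads, which are not divided by length, H3f3b had 52.3% of H3.3 in PB and 51.8% in PB-TERRA, Cbx1 had 19.8% and 18.3% of HP1, Cbx3 had 25.3% and 26.0%, Cbx5 had 54.8% and 55.6%, and Suv39h2 had 44.7% and 43.7% of its pair. List medians ran over the alternatives from 0.0284 to 0.0669 for the 10 genes, 0.0302 to 0.0834 for chaperones, 0.0123 to 0.0683 for methyltransferases, 0.013 to 0.0957 for the HUSH list, -0.0359 to 0.0342 for demethylases and -0.1765 to 0 for the Snrpn and protocadherin list. The cause of the other shifts was not tested. Depth limits the Suv39h genes most, and culture-to-culture spread is not known for any gene.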
